A study of Danio rerio with 6 samples.

Results

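The regions described here held an ATAC-seq peak in all 3 libraries of GFPplus nuclei and in exactly 1 of 3 libraries of GFPminus nuclei. They were chosen by these measured peak calls alone: peaks of the 6 lists that overlapped by 1 bp or more were joined, and 2217 of the 187225 joined regions (1.18%) met the rule. Among the 32454 regions with a peak in every GFPplus list they made up 6.83%. ATAC-seq reads open chromatin from where a transposase can insert adapters. The nuclei came from zebrafish embryos of the line Tg(fli1a:egfp) at 24 hours post fertilization, after removal of the yolk and douncing, and each library used 20000 nuclei sorted by fluorescence. GFPplus nuclei (3 libraries, labelled endothelial) and GFPminus nuclei (3 libraries, labelled non-endothelial) both carried the transgene, in which regulatory sequence of fli1a drives GFP.

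As background, endothelial cells line blood and lymphatic vessels, and ETS family transcription factors such as Fli1a, Etv2 and Erg act at many of their enhancers. Enhancers tend to be open in the cell types that use them, while many promoters are open in most cell types. The fli1a transgene is also known to label part of the blood lineage and neural crest derived cells of the pharyngeal arches, so GFPplus is a marker fraction and not a pure cell type. GFPminus is a mixture of nearly all other embryonic cells. In such a bulk fraction, a site open in few nuclei and a site with fewer insertions in each nucleus cannot be told apart. Marker genes, gene annotation and sequence were not used here, since no genome of the build of the lists (Zv9) was at hand. The labelled cell types were therefore not checked, and regions are named by position.

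The 6 lists differed in length, with 50396 to 73716 peaks in the GFPplus lists and 33437 to 113476 in the GFPminus lists. GFPminus replicate 3 was the shortest of all, while GFPminus replicates 1 and 2 were the longest. Peak lists hold no reads, so the depth of each library is unknown, and a region with no peak may still hold reads. The regions took 3.09%, 3.09% and 4.49% of the peaks of GFPplus replicates 1 to 3. Of the GFPminus lists they took 0.915%, 1.03% and 0.239%, in the order of the replicate numbers. The number of regions that met the rule depended on the libraries used. It was 3375 without GFPplus replicate 2 and 4436 without GFPplus replicate 3, where fewer GFPplus calls are required, and 2766 without GFPplus replicate 1. It was 8678 without GFPminus replicate 1 and 8602 without GFPminus replicate 2, but 2519 without GFPminus replicate 3.

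The single GFPminus call came almost always from one of the long lists. GFPminus replicate 1 held it in 1015 regions (45.8%, exact 95% binomial interval 43.7 to 47.9%), and GFPminus replicate 2 in 1122 (50.6%, 48.5 to 52.7%). GFPminus replicate 3 held it in 80 regions (3.61%, 2.87 to 4.47%). These intervals cover counting error only. Most calls were also in the long lists among the 67912 regions with a lone GFPminus call and no GFPplus call. Of these, GFPminus replicates 1 to 3 held 51.1%, 46.5% and 2.40%. Regions of one set of libraries are not replicates, so these shares were not tested against those above. The order of the first and second list was the other way round in the regions described here. In the 7677 regions with 3 GFPplus and 2 GFPminus calls, the missing list was GFPminus replicate 3 in 7307 (95.2%).

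When each list was held to the 33437 peaks with the highest −log10 p, the rule found 1384 regions, and the shares of GFPminus replicates 1 to 3 were 26.5%, 34.2% and 39.2%. The predominance of the long GFPminus lists was thus absent at equal list length. These were mostly other regions, since only 97 of the 2217 (4.38%) still had 3 GFPplus calls and 1 GFPminus call there. A peak of another GFPminus list lay outside the region but within 1 kb of its edge in 418 regions (18.9%). That count covers the other 2 GFPminus lists. For the 2285 regions with no GFPminus call the count covers all 3 lists and gave 17.0%, so these shares are not directly comparable.

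Peak strength was described by the fold enrichment at the summit that the authors deposited, and by its percentile among all peaks of the same list. Where a list had several peaks in a region, which happened in 17 to 64 regions per list except GFPminus replicate 3 (none), the one with the highest fold was used. The median fold was 5.68, 4.63 and 5.44 in GFPplus replicates 1 to 3, against 3.95, 3.92 and 4.43 in GFPminus replicates 1 to 3 where they held the call. The GFPplus peaks stood in the middle of their lists, with median percentiles of 64.6, 51.6 and 53.4. The GFPminus peaks stood lower, with median percentiles of 38.4, 41.3 and 24.2. Values spread widely in each library, from below the 1st to the 99.7 percentile in GFPplus replicate 1 and from below the 1st to the 91.0 percentile in GFPminus replicate 2. Because ranks in lists of different length do not measure a change in openness, and because the calls chose the regions, no test was made of these values.

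**Figure D1:**
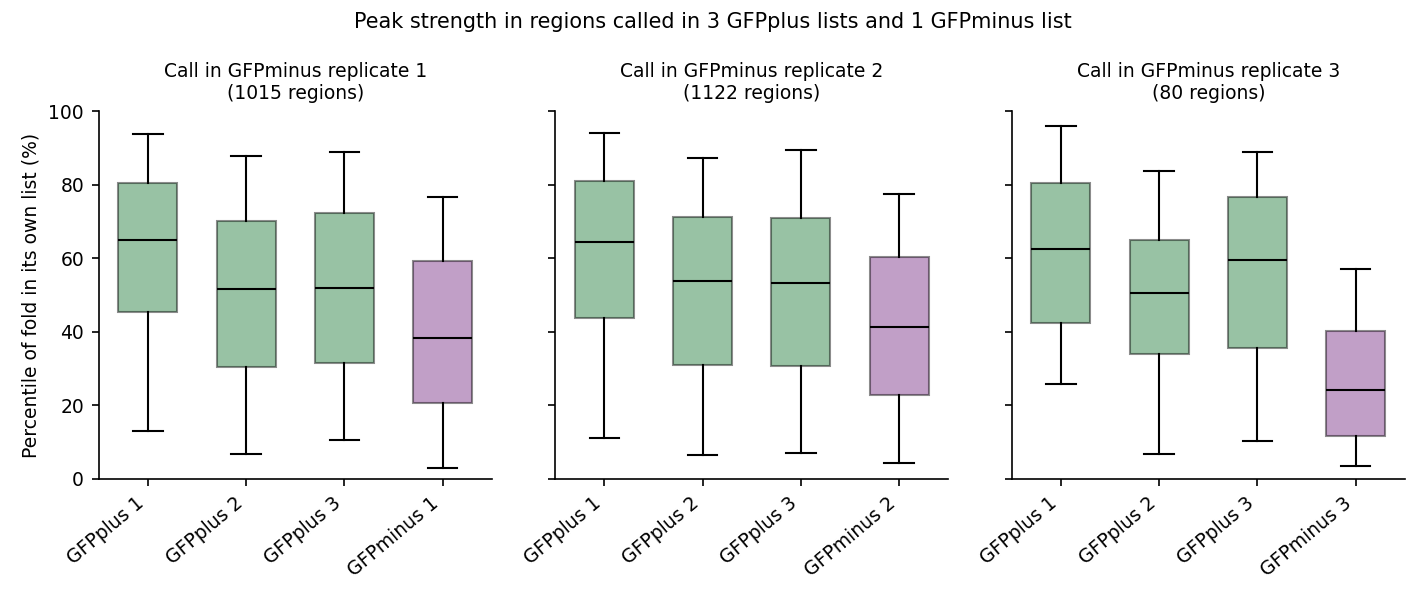
Percentile of fold within each list (vertical axis, %) for the regions with the GFPminus call in GFPminus replicate 1, 2 or 3 (panels), for the 3 GFPplus lists (green) and the GFPminus list with the call (purple). Boxes give median and quartiles, whiskers the 5th and 95th percentile of the regions. The GFPminus medians (38.4, 41.3 and 24.2) lie below every GFPplus median in their panel, and the GFPminus box overlaps the GFPplus boxes in every panel except that of GFPplus replicate 1 in the GFPminus replicate 3 panel.

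Region by region, the mean GFPplus percentile exceeded the GFPminus percentile by a median of 13.1 points (quartiles −8.08 and 35.4). The median was 13.01 points where GFPminus replicate 1 held the call, 11.99 points for GFPminus replicate 2 and 27.7 points for GFPminus replicate 3. Every GFPplus percentile lay above the GFPminus one in 1046 regions (47.2%). In the others the groups overlapped (825 regions, 37.2%) or the GFPminus percentile lay above all 3 GFPplus percentiles (346 regions, 15.6%). By rank in the whole list, the name "faintly open elsewhere" thus described only part of them. Such ranks depend on list length and do not measure openness. The difference was at least 25 points toward GFPplus in 798 regions (36.0%) and at least 25 points toward GFPminus in 213 (9.61%). For these 25-point counts no background share was computed, so nothing is read from them about the regions. The difference depended on the libraries used. The GFPminus minus mean GFPplus percentile, −13.1 in the 2217 regions, was −6.11 without GFPplus replicate 1 and −4.34 without GFPplus replicate 3. Its sign was the opposite when GFPminus replicate 1 (6.52) or GFPminus replicate 2 (6.75) was left out. The larger sets found without a long GFPminus list take in regions that the long lists share.

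For the counts with every GFPplus percentile above or below the GFPminus one, the background differed strongly between GFPminus lists. Every GFPplus percentile lay above that of GFPminus replicate 1 in 47.2% of the regions that it held, against 14.0% of all 28771 regions called in 3 GFPplus lists and in it. For GFPminus replicate 2 the shares were 46.0% and 13.7%, and for GFPminus replicate 3 they were 63.8% and 52.4%. Summed over the lists the background was 24.1%. The GFPminus percentile lay above every GFPplus percentile in 16.4% of the regions held by GFPminus replicate 1, against 49.1% in the background. For replicate 2 these shares were 15.8% and 48.8%, for replicate 3 they were 3.75% and 12.6%, and the background summed over the lists was 39.3%. Since the rule asked for no peak in the other GFPminus lists, it favoured low GFPminus values, and nothing is read from these shares about the regions.

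On a second scale the separation differed between GFPminus lists. Each fold was placed among the folds of the 20275 regions called in all 6 lists, in the same library, so that 50 is the strength of a typical shared region. On this scale the GFPplus peaks of the regions had medians of 23.5, 13.9 and 26.4 (replicates 1 to 3), and the GFPminus peaks had 2.98, 2.93 and 13.1. The GFPminus medians of replicates 1 and 2 were near the bottom of the scale, while that of replicate 3 was close to the GFPplus replicate 2 median. Every GFPplus value was above the GFPminus value in 67.1% of the regions, in place of 47.2% by percentile in the whole list. On this scale no background share was computed, and the rule favoured low GFPminus values here too, so nothing is read from the 67.1%. This scale too moves with list length. Of the shared regions, 95% lay above the 31.0, 30.1 and 17.1 percentile of GFPplus lists 1 to 3, and above the 51.2, 50.7 and 11.9 percentile of GFPminus lists 1 to 3.

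**Figure D2:**
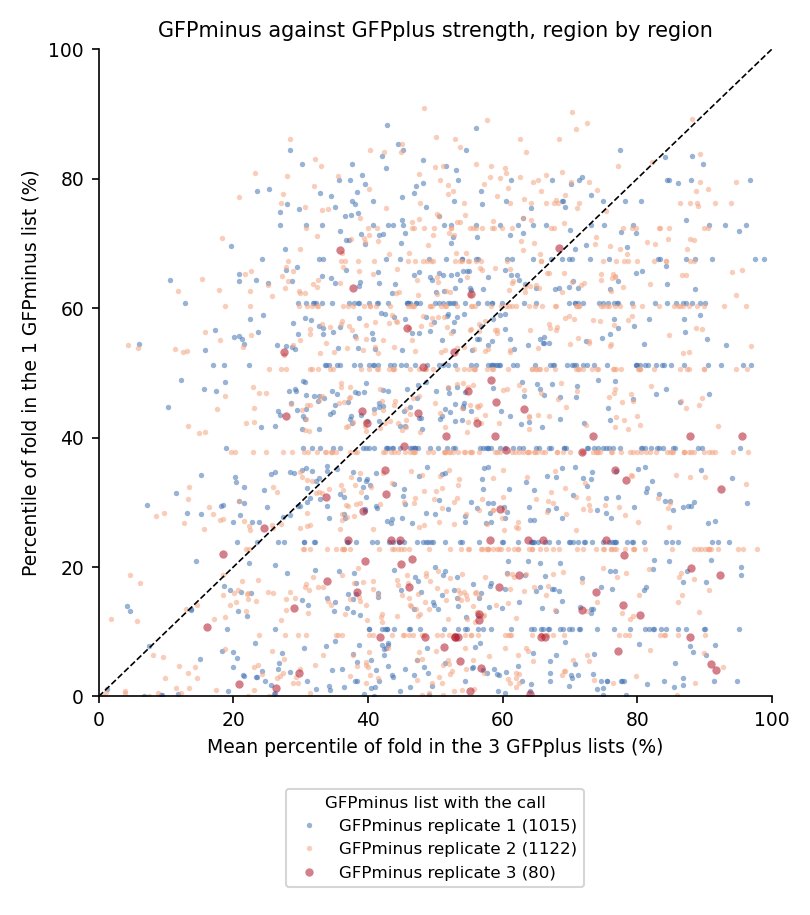
Percentile of fold in the 1 GFPminus list with a call (vertical axis, %) against the mean percentile in the 3 GFPplus lists (horizontal axis, %), 1 point per region, coloured by the GFPminus list. Points below the dashed line of equal values have the higher mean percentile in the GFPplus lists. The line compares ranks in lists of different length, not folds. Rows of points at one height are peaks with the same fold, and the regions are spread on both sides of the line.

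GFPplus strength was shared among the GFPplus replicates but hardly followed the strength of the GFPminus call. Across the 2217 regions Spearman's rho of fold between GFPplus libraries was 0.545 (replicates 1 and 2), 0.609 (1 and 3) and 0.454 (2 and 3). Between a GFPplus library and the GFPminus library with the call it lay between −0.110 and 0.224 over the 9 pairs, with 1015, 1122 or 80 regions. Both kinds were higher in the 20275 regions called in all 6 lists, at 0.707 to 0.765 between GFPplus libraries and 0.570 to 0.712 between the fractions. These values describe regions that share libraries and a lower limit on fold, and the GFPminus folds here span a narrow range (quartiles 3.58 and 4.66 in replicate 1). In the 226 regions whose lowest GFPplus percentile was 75 or more, the GFPminus percentile had a median of 41.0. In the 778 regions whose lowest GFPplus percentile was under 25 it had a median of 37.8. The GFPminus percentiles were thus alike beside the strongest and beside the weakest GFPplus peaks. The rule favoured low GFPminus values in both classes, so nothing is read from this likeness or from the low rho between the fractions.

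The rule has 2 edges, and the regions just across them were described in the same way. Going from 0 to 3 GFPminus calls among regions called in every GFPplus list, the numbers were 2285, 2217, 7677 and 20275. The median width grew in that order from 353 bp through 375 bp and 409 bp to 589 bp. A joined region spans all its peaks, so regions with more calls tend to be wider by construction. The mean length of the GFPplus peaks had medians of 244, 248 and 376 bp at 1, 2 and 3 GFPminus calls. In GFPplus replicate 1 the median percentile was 69.3, 64.6, 63.2 and 81.5, and in GFPplus replicate 3 it was 54.7, 53.4, 49.4 and 74.0. In GFPplus replicate 2 it was 47.9, 51.6, 60.9 and 82.8. GFPplus replicates 1 and 3 thus had their lowest value at 2 GFPminus calls, and GFPplus replicate 2 at 0. The GFPminus values rose at each step, but the regions were grouped by these same calls, which favours such a rise. Going from 1 to 3 calls the GFPminus medians were 38.4, 67.6 and 88.7 in GFPminus replicate 1 and 41.3, 67.3 and 88.6 in GFPminus replicate 2. In GFPminus replicate 3 the medians were 24.2, 27.1 and 65.8. Across the other edge, 3920 regions had 2 GFPplus calls and 1 GFPminus call. Their GFPplus percentiles were lower, with medians of 37.4, 36.4 and 32.9 in replicates 1 to 3, while their GFPminus medians were 38.4, 37.8 and 26.8. Grouping by fewer GFPplus calls likewise favours lower GFPplus values, so nothing is read from either step.

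**Figure D3:**
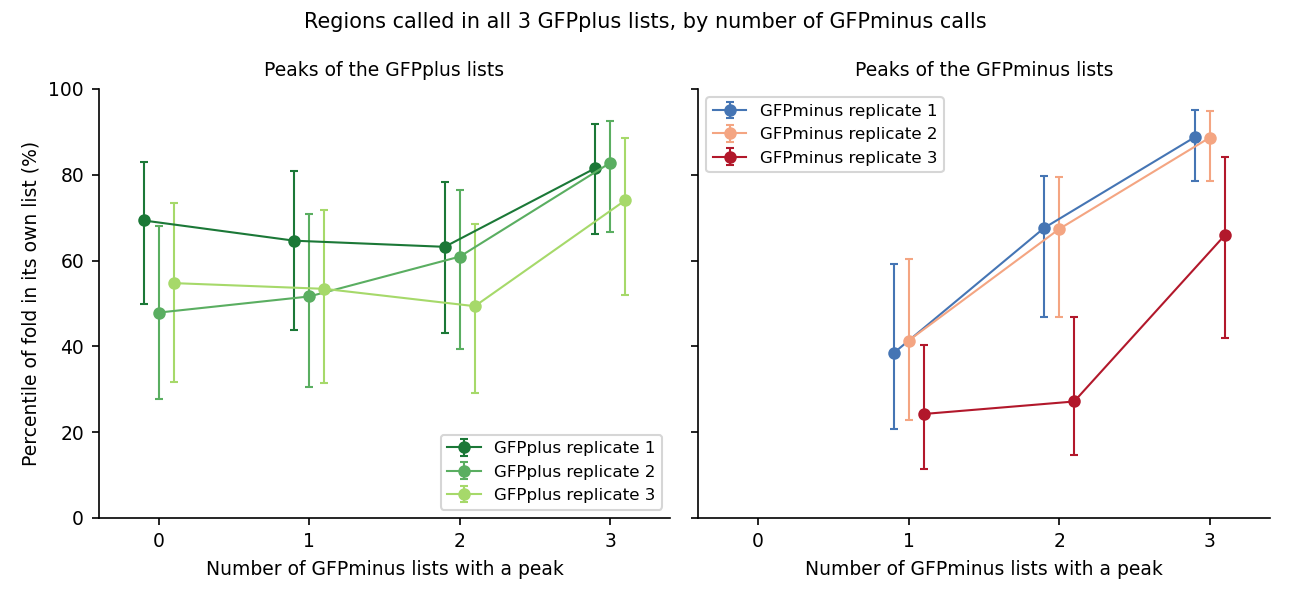
Median percentile of fold (points; bars give the quartiles over regions) in regions called in all 3 GFPplus lists, by the number of GFPminus lists with a peak, for the GFPplus lists (left) and the GFPminus lists (right). From 0 to 2 GFPminus calls the GFPplus medians stay between 47.9 and 69.3. The GFPminus medians of replicates 1 and 2 go from 38.4 and 41.3 at 1 call to 67.6 and 67.3 at 2 calls. The regions are grouped by the GFPminus calls themselves, which favours this rise.

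Each list reached down to a −log10 q of at most 1.31. The −log10 q of the GFPplus peaks had medians of 8.71, 5.33 and 5.52 in replicates 1 to 3, and that of the GFPminus peaks had 4.08, 3.96 and 3.22. A −log10 q under 2 was found for 0.451%, 1.49% and 1.17% of the regions in the GFPplus lists (replicates 1 to 3), against 2.26%, 2.62% and 2.72% of all peaks in those lists. In the GFPminus lists the shares were 5.12%, 8.29% and 3.75%, against 3.59%, 8.17% and 1.91% of all peaks. The GFPplus shares thus lay below those of their lists, and the GFPminus shares at or above them. The rule asked for a peak in all 3 GFPplus lists and for none in the other GFPminus lists. It thereby favoured strong GFPplus and weak GFPminus peaks, so nothing is read from these shares or from the shares kept below. When every list was cut to its best 33437 peaks, the GFPminus call was kept in 7.09% of the regions of GFPminus replicate 1 and 10.3% of those of replicate 2. Of all peaks, these 2 lists kept 29.5% and 30.2%, and GFPminus replicate 3 kept its whole list. The GFPplus calls were kept in 64.4%, 46.6% and 72.5% of the regions in replicates 1 to 3, where 46.0%, 45.4% and 66.3% of all peaks were kept. GFPplus replicate 2 was thus close to the share of its list. After this step 650 regions (29.3%) had 3 GFPplus calls and no GFPminus call, and 97 (4.38%) still had 3 and 1. A further 1036 (46.7%) kept 1 or 2 GFPplus calls and no GFPminus call, while 263 (11.9%) had no call left. For these counts no share over all joined regions was computed, so nothing is read from them about the regions.

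Since regions were formed by overlap, contact of the GFPminus peak with a GFPplus peak was nearly given by the rule. For each list only the peak with the highest fold was compared. The GFPminus peak overlapped all 3 GFPplus peaks in 1992 regions (89.9%), 2 of them in 155, 1 in 68 and none in 2. In those 2 regions, peaks left out of this comparison bridged the gap. All 3 were overlapped by 93.9% of the GFPminus peaks in regions with 2 GFPminus calls and by 96.5% in regions called in all 6 lists. The GFPminus peak was shorter than the mean GFPplus peak in 75.7% of the regions. This share was 51.3% of the GFPminus peaks at 2 GFPminus calls and 45.5% in regions called in all 6 lists. The median length of the peaks was 296, 216 and 215 bp in GFPplus replicates 1 to 3, against 171, 170 and 162 bp in GFPminus replicates 1 to 3. Over all peaks of these lists the medians were 236, 211 and 213 bp in GFPplus and 205, 199 and 275 bp in GFPminus. Within the stretch common to the 3 GFPplus peaks, present in 94.3% of the regions, the GFPminus peak covered a median of 75.3%. Its summit fell in that stretch in 1471 regions (66.4%). In regions with 2 GFPminus calls the summit did so in 71.9% of the GFPminus peaks, and in regions called in all 6 lists in 84.4%. Median coverage of the common stretch was 100% in both of these kinds.

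The summit of the GFPminus peak was a median of 58.7 bp (quartiles 32.7 and 102 bp) from the GFPplus summits, averaged over the 3 libraries. The GFPplus summits were a median of 52.0 bp (quartiles 30.0 and 86.0 bp) from one another in the same regions. The GFPminus summit was the farther one in 42.5% of the regions. This share was 36.8% of the GFPminus peaks at 2 GFPminus calls and 38.2% in regions called in all 6 lists. The 2 distances are averages of different kinds, so an even split is not the reference. By list, its distance was 58.3 bp for GFPminus replicate 1, 56.3 bp for replicate 2 and 98.3 bp for replicate 3. In regions called in all 6 lists the distance was also largest for GFPminus replicate 3, at 59.0 bp, against 39.7 and 39.3 bp for replicates 1 and 2. Over the 3 GFPminus lists it was 45.7 bp there, and the GFPplus summits were 42.0 bp from one another. In 152 regions (6.86%) the GFPminus summit was over 200 bp away, a share close to the 6.37% at 2 GFPminus calls and the 6.51% in regions called in all 6 lists. A mean distance over 200 bp needs a wide region. These 152 had a median width of 578 bp, against 324 bp for the 947 regions with the GFPminus summit within 50 bp. Their GFPminus percentile was also lower, at a median of 29.6 against 47.8. Mean GFPplus percentiles of the same regions had medians of 54.8 and 56.4.

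**Figure D4:**
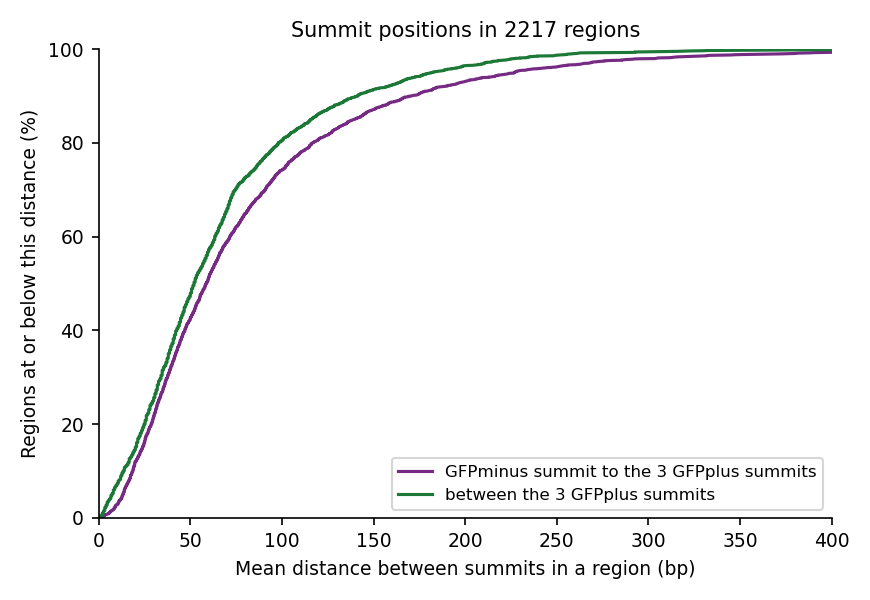
Share of the 2217 regions (vertical axis, %) at or below a mean summit distance (horizontal axis, bp), for the GFPminus summit against the 3 GFPplus summits (purple) and for the GFPplus summits among themselves (green). The curves run close together, with medians of 58.7 bp and 52.0 bp.

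The regions were spread over the genome. On the 25 numbered chromosomes there were 2165, and 52 lay on unplaced sequence. Their share of the regions called in 3 GFPplus lists ranged from 5.55% on chromosome 3 to 8.14% on chromosome 10, with a median of 7.01% over chromosomes. Chromosome 7 had most of them (111) and chromosomes 22 and 24 had fewest (63 each). Their shares by the same measure were alike, at 6.31%, 6.65% and 6.34%. On every numbered chromosome the mean GFPplus percentile exceeded the GFPminus percentile in the median, by 6.23 points on chromosome 1 up to 21.7 points on chromosome 4. The same rule, which favoured low GFPminus values, chose the regions on each chromosome, so the shared direction is no separate support. Of the 100 kb windows with any joined region, 1608 held 1 region of this kind, 227 held 2, 26 held 3, 5 held 4 and 1 held 5.

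A region with 3 GFPplus calls and no GFPminus call, here called GFPplus-only, lay within 10 kb of 210 of the 2165 regions on numbered chromosomes (9.70%). Of the GFPplus-only regions themselves, 12.2% had another of their kind that near. The share was 6.30% for regions with 2 GFPminus calls, 4.46% for those called in all 6 lists and 4.08% for all joined regions on the numbered chromosomes. Another region of the kind described here lay within 10 kb in 141 cases (6.51%), against 9.33% of GFPplus-only, 5.69% of regions with 2 GFPminus calls and 3.95% of all joined regions. Regions with the opposite pattern, 3 GFPminus calls and no GFPplus call, were near 2.03% of them. This share was 2.93% for GFPplus-only regions, 2.50% for regions with 2 GFPminus calls and 2.75% for all joined regions. All these kinds had a median of 3 joined regions within 10 kb. The neighbour shares were counted in the same 6 lists that chose the regions, and their differences were not tested.

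The widest separations were between GFPplus peaks near the top of their lists and GFPminus peaks near the bottom. The region on chromosome 9 at 25111312 to 25111766 (Zv9) had folds of 13.3, 9.91 and 10.2 in GFPplus replicates 1 to 3 and a fold of 2.87 in GFPminus replicate 1. In percentiles this was 97.8, 94.9 and 91.7 against 2.37. On chromosome 6 at 20171685 to 20172109 the folds were 10.8, 8.32 and 10.7 in GFPplus and 3.02 in GFPminus replicate 2. On chromosome 7 at 72475034 to 72475548 the GFPplus fold was 9.47 ± 0.73 (SD, n = 3) and that of GFPminus replicate 1 was 2.87. The others were on chromosome 21 at 24257001 to 24257425 (GFPplus 8.74 ± 1.34, SD, n = 3; GFPminus replicate 2, 2.82) and on chromosome 24 at 39367038 to 39367797 (GFPplus 11.4 ± 2.24, SD, n = 3; GFPminus replicate 1, 3.23). In all 5 the lowest GFPplus percentile was 82.5 to 89.3 points above the GFPminus percentile. The regions were picked for this gap.

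At the other end, the GFPminus peak ranked far above all 3 GFPplus peaks. The region on chromosome 24 at 4914924 to 4915309 had folds of 3.38, 3.46 and 3.93 in GFPplus replicates 1 to 3 (percentiles 8.09, 9.97 and 13.6) and 4.84 in GFPminus replicate 1 (percentile 64.4). On chromosome 11 at 36356929 to 36357101 the GFPplus fold was 4.20 ± 0.36 (SD, n = 3) and the fold of GFPminus replicate 1 was 6.47. On chromosome 22 at 21827184 to 21827446 the GFPplus fold was 4.03 ± 0.24 (SD, n = 3) and the fold of GFPminus replicate 2 was 6.21. The GFPminus percentiles of the 3 were 64.4, 82.3 and 80.9. That no other GFPminus list had a peak there is given by the rule.

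Regions were also ordered by their lowest GFPplus −log10 p, which is not the order by fold. Among those held by GFPminus replicate 1, the first was on chromosome 9 at 15239355 to 15240191. It had folds of 17.0, 13.8 and 14.8 in GFPplus replicates 1 to 3, at percentiles of 99.4, 98.8 and 98.5, and a fold of 5.03 in GFPminus replicate 1 (percentile 67.6). The 4 summits lay close together, with the GFPminus summit a mean of 8 bp from the GFPplus summits. The next were on chromosome 13 at 52182812 to 52183380 (GFPplus folds 14.6, 9.57 and 10.8; GFPminus 3.55) and on chromosome 8 at 4598521 to 4599169 (GFPplus 9.28 ± 1.51, SD, n = 3; GFPminus 3.60). Among regions held by GFPminus replicate 2 the first in this order was on chromosome 1 at 8187214 to 8187747, with a GFPplus fold of 13.03 ± 3.28 (SD, n = 3) and a GFPminus fold of 4.32. The next regions were on chromosome 5 at 16539440 to 16539953 (GFPplus 12.02 ± 2.37, SD, n = 3; GFPminus 3.81) and on chromosome 21 at 29196549 to 29197370 (GFPplus 9.48 ± 0.33, SD, n = 3; GFPminus 5.65). In both the GFPminus summit stood off, at a mean of 201 and 375 bp from GFPplus summits that lay 5.33 and 16.7 bp from one another. In all 1122 regions held by GFPminus replicate 2 its peak overlapped at least 1 GFPplus peak, so these values show an offset of summits only.

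The 80 regions held by the shortest list, GFPminus replicate 3, had by the rule no peak in either long GFPminus list. By the lowest GFPplus −log10 p the first was on chromosome 17 at 8235188 to 8235750, with GFPplus folds of 13.6, 7.55 and 10.3 (replicates 1 to 3), against 4.72 in the GFPminus list. Next was a region on chromosome 5 at 47857684 to 47858276, with a GFPplus fold of 9.37 ± 0.50 (SD, n = 3) and a GFPminus fold of 3.69, at the 4.98 percentile of that list. The region on chromosome 13 at 48847542 to 48848222 had the largest SD among GFPplus libraries of these 9 (4.14), with folds of 13.4, 8.04 and 16.2, and had a GFPminus fold of 4.99. In all 9 regions of this order the lowest GFPplus percentile was above the GFPminus percentile, by 13.6 to 82.0 points. They were picked for strong GFPplus peaks, which makes this outcome likely. It was found in 220 (97.3%) of the 226 regions whose lowest GFPplus percentile was 75 or more.

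**Figure D5:**
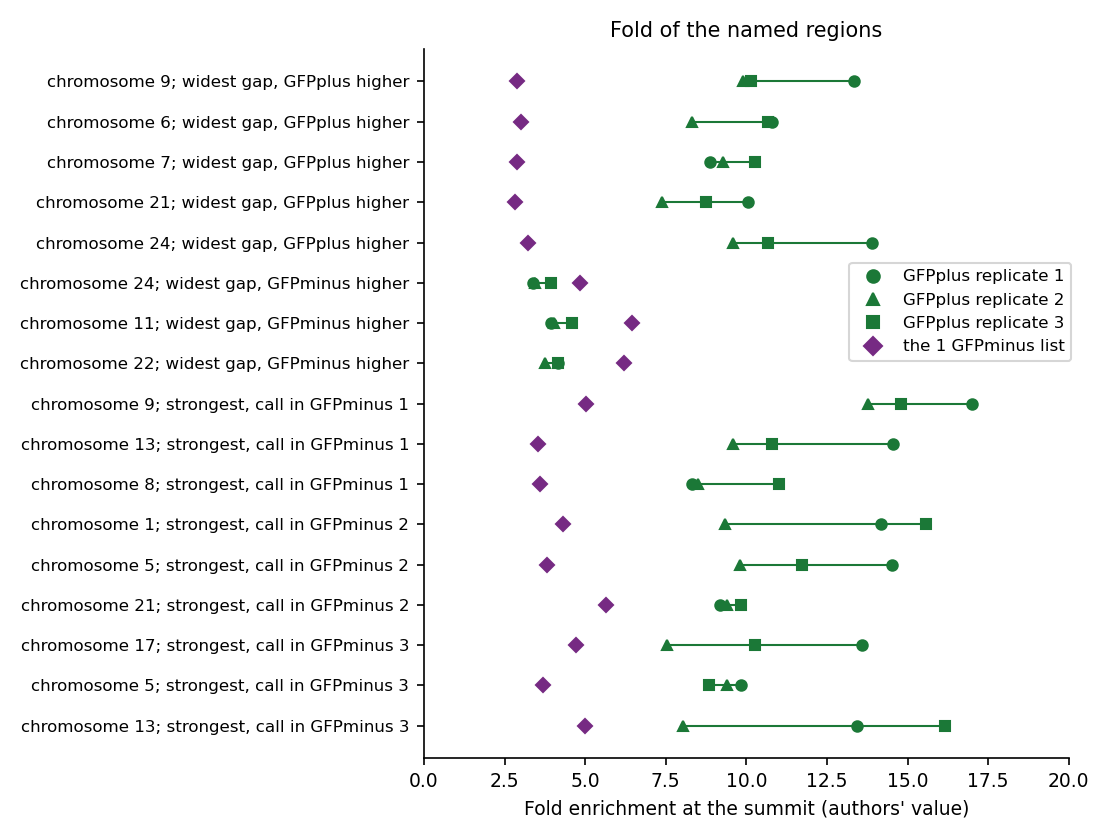
Fold enrichment at the summit (horizontal axis, the authors' value, not scaled between libraries) in the 3 GFPplus libraries (green symbols) and in the 1 GFPminus list with a call (purple diamonds) for the 17 regions named by gap or by their lowest GFPplus −log10 p (rows marked strongest), by chromosome. In 14 regions the GFPminus fold lies left of all GFPplus folds; in the 3 picked for a higher GFPminus percentile it lies to the right.

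The 3 regions below were picked for the most regions of this kind and GFPplus-only regions within 10 kb. Their neighbours follow from that choice. The chromosome 9 region with the widest gap had a GFPplus-only region at 25119812 to 25120210 within 10 kb, with a mean GFPplus fold of 5.25, and another region with 1 GFPminus call at 25120467 to 25121105, with a mean GFPplus fold of 5.64 and a fold of 3.88 in GFPminus replicate 2. On chromosome 5, the region at 74789181 to 74789616 lay between GFPplus-only regions at 74786641 to 74786936 and at 74793887 to 74794259. Its GFPplus fold was 7.35 ± 1.11 (SD, n = 3) and its fold in GFPminus replicate 1 was 3.42, while its GFPplus-only neighbours had mean GFPplus folds of 4.03 and 8.62. On chromosome 24, the region at 22389256 to 22389836 (GFPplus 8.63 ± 0.39, SD, n = 3; GFPminus replicate 1, 4.67) had GFPplus-only neighbours at 22379937 to 22380360 and at 22386263 to 22386634. The neighbours there were weaker in GFPplus than the region itself, with mean folds of 5.36 and 4.71.

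The window with most regions was on chromosome 15 at 3500001 to 3600000, where 5 of 27 joined regions had the pattern. Their mean GFPplus folds were between 4.22 and 6.43, and their GFPminus folds between 4.46 and 8.35. The last of them, at 3588872 to 3589396, had the highest GFPminus percentile of all 2217 regions (91.0, with a fold of 8.35 in GFPminus replicate 2), against a mean GFPplus fold of 5.05. No GFPplus-only region lay in this window. There were 5 windows with 4 regions each, and the 2 with the fewest joined regions were on chromosome 8 at 50600001 to 50700000 (4 of 19) and on chromosome 3 at 46300001 to 46400000 (4 of 20), with 1 and 2 GFPplus-only regions. Both long GFPminus lists contributed calls in these 3 windows. None of the 3 held a region with 3 GFPminus calls and no GFPplus call, of which there were 1594 among all joined regions. The share of all windows without such a region, or without a GFPplus-only one, was not computed, so nothing is read from these absences.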

How the data were processed

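Per the submitters' processing notes, the tools were MACS2, deepTools, Bowtie2 2.1.0 and cutadapt 1.3, on Zv9 (danRer7). Settings and filters: not given in the sources used here. Each library has its own narrowPeak list from the authors, 454383 peaks in all. For every peak the authors deposited its fold (a ratio to background), −log10 values of p and of q, a score, which was not used, and the offset of the summit. Values were used to describe, rank and choose peaks; folds of different libraries stand side by side as deposited, with no scaling between libraries.

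Peaks were joined, counted and ranked with Python 3.11.15, pandas 2.3.3, numpy 2.4.6 and scipy 1.17.1. The percentile of a peak is its rank by fold over the length of its list, with ties at their mean rank. Coordinates are 1-based. The code was tested on simulated data. No p-values were computed: the calls chose the regions, regions are not replicates, and 3 libraries against 3 cannot give an exact permutation p below 0.1. Per the series' design text, nuclei were isolated on 3 occasions, and whether equal replicate numbers share an occasion is not stated.

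Named regions were the 5 with the widest gap toward GFPplus, the 3 toward GFPminus, the 3 with the highest value of the lowest GFPplus −log10 p for each GFPminus list, the 3 with most such regions and GFPplus-only regions within 10 kb, and the 3 windows of 100 kb with most of them. The regions and these rules were chosen with earlier results of these data known. Alternatives were −log10 p in place of fold, percentiles among regions called in all 6 lists, the mean of the peaks in a region, lists of equal length, peaks with −log10 q (or fold) from 5 upward, joining by 50% or more of the shorter peak, summits widened by 100 bp, numbered chromosomes only, each library left out, and a replicate block. Genes and sequences were not analysed here.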

Additional observations from a re-analysis of the deposited data

How the results depend on the processing

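The GFPminus minus mean GFPplus percentile (−13.1 points) kept its direction in 14 alternatives, among them −14.7 with lists of equal length, in mostly other regions (97 of the 2217 still met the rule), and −15.0 with the replicate block, that is, against the same-numbered GFPplus library only. Leaving out a library gave −10.4 to 6.75, and the sign turned without GFPminus replicate 1 (6.52) and without GFPminus replicate 2 (6.75), where regions shared by the long lists enter by construction. The share of regions with every GFPplus percentile above the GFPminus one (47.2%) was 67.1% on the scale of regions called in all 6 lists, and 24.7% to 50.7% without 1 library. No background share was computed for these alternatives. The summit distance (58.7 bp) was 42.3 bp with folds from 5 upward, 45.7 bp with −log10 q from 5 upward and 48.7 bp at equal length. Elsewhere it was 50.7 to 60.0 bp. All 13 alternatives moved it by less than the SD over GFPminus lists (23.7 bp). That SD is a wide measure, from list medians of 58.3, 56.3 and 98.3 bp, the last over 80 regions.

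The number of regions (2217) was 1384 at equal length. With peaks limited to a −log10 q from 5 upward it was 1241, and with folds from 5 upward 1227. Without 1 library it was 2519 to 8678, since that asks for fewer calls or fewer lists without a peak. The share of GFPminus replicate 1 was 26.5% at equal length and 48.2% with folds from 5 upward, and 46.5% to 96.8% without 1 library. That of GFPminus replicate 2 was 34.2%, 40.7% and 49.5% to 97.1%. That of GFPminus replicate 3 was 39.2%, 11.1% and 2.84% to 3.73%, and 5.50% with widened summits. Depth limits every absence: a missing peak does not show closed chromatin. The cause of the changes with the fold and q limits was not tested.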
